A study of Mus musculus with 6 samples.

Results

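Small leucine-rich proteoglycans are secreted matrix proteins built on a run of leucine-rich repeats, and many carry chondroitin, dermatan or keratan sulfate chains. They bind collagen fibrils and affect how the fibrils grow and pack, and several also bind growth factors of the transforming growth factor beta family. Fibroblasts are a usual source, and the meninges, the sheets of connective tissue around the brain, hold many such cells. The 10 family genes described here, Dcn, Bgn, Aspn, Lum, Fmod, Prelp, Omd, Ogn, Chad and Podn, were taken by gene symbol from the 31053 genes of each count matrix. The rule read gene symbols and no expression values, but the genes were chosen with earlier results of these data known.

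The data came from 2 dissections of adult wild-type C57BL6 mice, each run on pooled tissue of several animals and sorted for viable cells before 10x Genomics single-cell sequencing. The cortical surface preparation (labelled Brain, libraries CSA1 to CSA4) took the top of the cortex with the leptomeninges. The bone-associated preparation (labelled Dura/Skull, libraries BA1 and BA2) took the connective tissue attached to the skull, including the dura. No animal was treated, and p-values here measure the spread between pooled runs. The question was in which cells of these tissues each gene is transcribed, and whether the mesenchymal cells of the 2 preparations differ in it.

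Several of these genes lie in tandem in the mouse genome (GRCm38, mm10, GENCODE M21 annotation). Dcn (chr10:97479609-97518143, plus strand) and Lum (chr10:97565128-97572703, plus strand) are neighbours 47.0 kb apart, with no coding gene between them. Prelp (chr1:133910304-133921414, minus strand) and Fmod (chr1:134037254-134048277, plus strand) lie 115.8 kb apart. Aspn (chr13:49544443-49567565), Omd (chr13:49582462-49592822) and Ogn (chr13:49608046-49624501) follow each other on the plus strand with gaps of 14.9 and 15.2 kb, all inside the span of Cenpp, which is annotated on the opposite strand. Bgn (chrX:73483602-73495933, plus strand) has no family neighbour, nor does Podn (chr4:108014791-108096445, minus strand), which overlaps the span of Scp2 on the same strand. Chad (chr11:94565047-94569127, plus strand) lies within the span of Acsf2 on the opposite strand. Exons of Aspn overlap exons of Cenpp, while those of Omd and Ogn do not. Cenpp had at most 9.53 CPM in the mesenchymal-like cells of any library, which was 1 UMI in CSA4.

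The stretch before the start of the 3 chromosome 13 neighbours and of Chad is shown because Aspn had its highest levels in mural cells while its neighbours Omd and Ogn were highest in bone-associated mesenchymal-like cells, and because Chad was found in the mesenchymal-like cells of 1 preparation only. The 250 bases upstream of each RefSeq start were read from RefSeq promoter entries (GRCm38.p6, plus strand), which held 8 of the 10 genes. Dcn and Lum had no entry. Capitals mark matches to TATAAA, to TGTGGT (the RUNX core), to GGGCGG (the GC box), to TGANTCA (the AP-1 site) or to the CArG box of serum response factor, searched on both strands.
Aspn (chr13:49544193-49544442, plus strand): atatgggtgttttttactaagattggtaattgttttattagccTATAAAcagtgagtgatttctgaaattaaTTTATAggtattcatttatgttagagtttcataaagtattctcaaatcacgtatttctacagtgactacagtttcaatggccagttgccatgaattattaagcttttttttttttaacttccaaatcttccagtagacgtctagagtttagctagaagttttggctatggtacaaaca
Omd (chr13:49582212-49582461, plus strand): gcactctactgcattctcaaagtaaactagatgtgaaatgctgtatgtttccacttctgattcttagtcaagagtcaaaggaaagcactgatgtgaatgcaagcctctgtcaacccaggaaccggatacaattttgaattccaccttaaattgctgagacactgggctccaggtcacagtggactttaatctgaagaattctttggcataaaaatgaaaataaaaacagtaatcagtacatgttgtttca
Ogn (chr13:49607765-49608014, plus strand): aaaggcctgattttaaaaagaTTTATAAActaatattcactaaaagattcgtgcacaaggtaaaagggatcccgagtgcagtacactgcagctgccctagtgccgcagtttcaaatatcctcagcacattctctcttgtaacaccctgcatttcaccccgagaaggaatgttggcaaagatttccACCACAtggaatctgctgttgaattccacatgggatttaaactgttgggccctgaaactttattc
Chad (chr11:94564797-94565046, plus strand): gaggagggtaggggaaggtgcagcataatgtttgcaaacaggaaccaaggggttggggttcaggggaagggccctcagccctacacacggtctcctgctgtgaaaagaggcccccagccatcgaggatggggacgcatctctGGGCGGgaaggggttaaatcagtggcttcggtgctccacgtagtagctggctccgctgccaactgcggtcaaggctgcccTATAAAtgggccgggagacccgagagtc
Chad held TATAAA from -28 to -23 before its start and GGGCGG from -108 to -103. Aspn held 2 matches to TATAAA and Ogn held 2 overlapping ones, each more than 170 bases before the start, and Ogn also held TGTGGT from -65 to -60. The window of Omd held no match to any of the 5. Over 32851 mouse promoters of the same length, 12.4% held TATAAA, 14.05% TGTGGT, 32.7% GGGCGG, 6.75% TGANTCA and 1.47% a CArG box. A match is a description of letters and not of a bound site.

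After filtering, 8680 cells remained, 5272 from the cortical surface and 3408 from bone-associated tissue, with a median of 5461 to 9556 unique molecular identifiers (UMIs, each a captured mRNA molecule) per cell across libraries. CSA3 and CSA4 stood apart, since hemoglobin transcripts took 84.6% and 71.9% of all their UMIs against at most 0.520% elsewhere. In their kept cells the shares were 17.7% and 11.6%. Any 2 libraries shared at most 9 cell barcodes. Classes were named from markers that held none of the 10 genes, and the 10 genes took no part in clustering. Mesenchymal-like cells, which carried all 7 of their markers, Pdgfra among them, in every library, numbered 78, 137, 30 and 22 in CSA1 to CSA4 and 32 and 253 in BA1 and BA2. Levels are given as CPM, the UMIs of a gene per 1000000 UMIs of all cells of a class in a library.

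Summed over the 10 genes, mesenchymal-like cells devoted more of their transcripts to the family than any other class compared. Dcn was the largest single part of these sums, at 2741 to 7325 CPM in CSA1 to CSA4 and 9431 and 7732 CPM in BA1 and BA2. Summed, the genes took 0.566% to 1.02% of UMIs in the cortical surface libraries and 1.59% and 1.95% in the bone-associated ones. Pericyte-like cells gave 0.134% to 0.363%, counting separately the clusters with Ccl19 or Colec11 among their leading genes, called Ccl19-led here. Of the 59 bone-associated cells so called, 28 were of a cluster with Colec11 and without Ccl19 among those genes. By mean level on the cortical surface, Bgn, Aspn, Prelp and Ogn were higher in Ccl19-led than in mesenchymal-like cells, Bgn and Ogn with overlap. Dcn, Lum, Fmod, Omd and Podn were lower in them. VSMC-like cells gave 0.110% to 0.228%, without the 50 bone-associated cells of split sub-clusters, for which no sum was made. Endothelial-like cells gave 0.00345% to 0.0318%. T or NK-like cells, lymphocytes that should lack these genes and were taken to show the level of free RNA, gave at most 0.00399%. With each cell thinned to 1500 UMIs, a cortical surface mesenchymal-like cell held a median of 4 of the 10 genes (n = 254 cells) and a bone-associated one also a median of 4 (n = 282 cells). Thinning left out 13 and 3 shallower cells. T or NK-like cells held a median of 0, and 98.4% and 96.2% of them held none.

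**Figure D1:**
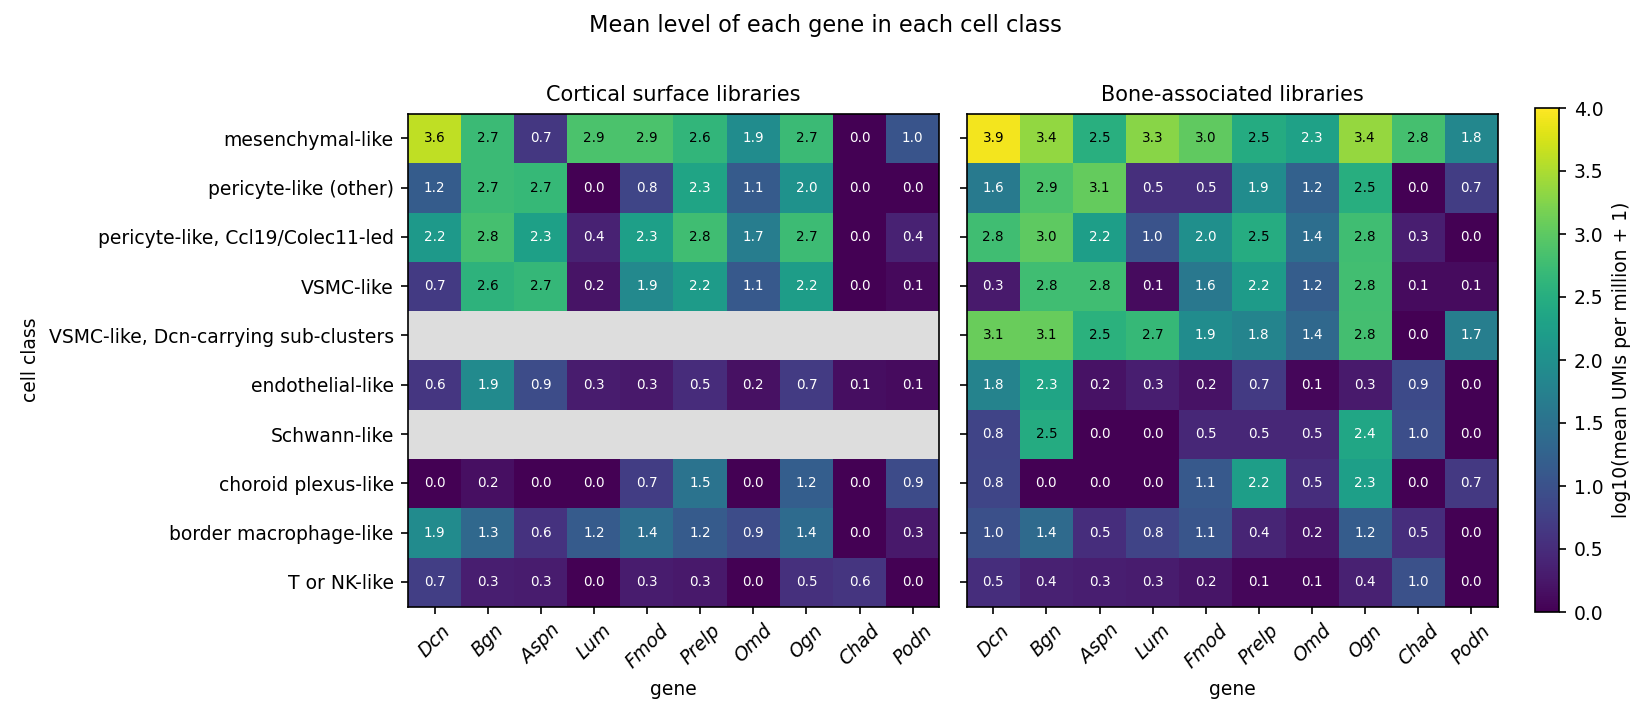
Mean level over libraries of each gene (columns) in each cell class (rows), as log10(mean CPM + 1), for the cortical surface libraries (left) and the bone-associated libraries (right). Grey rows are classes without a library of at least 10 cells. Dcn and Lum stood out in mesenchymal-like cells, Aspn in pericyte-like and VSMC-like cells, and Bgn, Prelp and Ogn spread over mesenchymal-like and mural classes.

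Dcn encodes decorin, a collagen-binding proteoglycan with a single chondroitin or dermatan sulfate chain. Its level in cortical surface mesenchymal-like cells was 4132 ± 2168 CPM (SD, n = 4 libraries), against 147 ± 59.9 CPM (SD, n = 4) in pericyte-like cells led by Ccl19 and Colec11 and 13.5 ± 7.41 CPM (SD, n = 4) in the other pericyte-like cells. Lum, the corneal and skin proteoglycan lumican, had 735 ± 183 CPM (SD, n = 4) in the same mesenchymal-like cells and at most 13.2 ± 11.5 CPM (SD, n = 4) in any other class. The next class for Lum was border macrophage-like cells, which also held 83.9 ± 56.4 CPM (SD, n = 4) of Dcn and lower levels of Fmod and Ogn. In the bone-associated libraries both genes again had their highest level in mesenchymal-like cells, with no overlap with the next class.

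Aspn, the gene of asporin, went the other way. In the cortical surface libraries its order was pericyte-like cells other than the Ccl19-led ones (478 ± 8.58 CPM, SD, n = 4), then VSMC-like cells (459 ± 56.0 CPM, SD, n = 2), whose library values overlapped with them, then Ccl19-led pericyte-like cells (188 ± 58.9 CPM, SD, n = 4). Mesenchymal-like cells there stood at 3.52 ± 7.04 CPM (SD, n = 4), within the range of endothelial-like cells. In the bone-associated libraries pericyte-like cells other than the Ccl19-led ones again came first (1152 ± 352 CPM, SD, n = 2). VSMC-like cells other than 2 split sub-clusters had 592 ± 62.2 CPM (SD, n = 2). There, mesenchymal-like cells had 337 ± 99.1 CPM (SD, n = 2). Ccl19-led pericyte-like cells lay below them without overlap, at 177 ± 45.2 CPM (SD, n = 2). Asporin carries a run of aspartate residues in place of a glycosaminoglycan chain and binds collagen and transforming growth factor beta.

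Bgn, which encodes the 2-chain proteoglycan biglycan, was spread most widely. Its cortical surface levels of 664 ± 110 CPM (SD, n = 4) in Ccl19-led pericyte-like, 541 ± 79.0 CPM (SD, n = 4) in mesenchymal-like and 524 ± 56.9 CPM (SD, n = 4) in other pericyte-like cells overlapped between neighbours in that order. It was also found in endothelial-like cells (80.1 ± 40.2 CPM, SD, n = 4) and, in bone-associated tissue, in Schwann-like cells, at 412 CPM in BA1 and 169 CPM in BA2. Prelp, a basement membrane and collagen linker, was highest in Ccl19-led pericyte-like cells of the cortical surface, at 782, 499, 570 and 561 CPM in CSA1 to CSA4, with mesenchymal-like cells next at 494, 390, 313 and 495 CPM. Prelp also had 175 CPM in the 12 choroid plexus-like cells of BA1, against 27.4 and 37.7 CPM in the 36 and 98 such cells of CSA3 and CSA4, and 125 CPM in the neuron-like cells of CSA2. The bone-associated choroid plexus-like cells had a median of 67678 UMIs, against 8557 in the cortical surface ones. Those 12 cells of BA1 also held 179 CPM of Ogn.

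Ogn, the gene of osteoglycin (mimecan), shared that mural component. In the cortical surface libraries Ccl19-led pericyte-like cells (557 ± 130 CPM, SD, n = 4) and mesenchymal-like cells (526 ± 145 CPM, SD, n = 4) overlapped, while VSMC-like cells had 229 CPM in CSA1 and 102 CPM in CSA2. In bone-associated tissue Ogn had 2353 ± 1032 CPM (SD, n = 2) in mesenchymal-like cells, 614 ± 296 CPM (SD, n = 2) in the same VSMC-like cells, and 175 and 290 CPM in the Schwann-like cells of BA1 and BA2. Fmod and Omd, the genes of the keratan sulfate proteoglycans fibromodulin and osteomodulin, had one order at the top in the cortical surface libraries. Mesenchymal-like cells came first and Ccl19-led pericyte-like cells next, at 745 ± 204 and 183 ± 50.4 CPM (SD, n = 4) for Fmod and 87.9 ± 24.3 and 48.0 ± 9.36 CPM (SD, n = 4) for Omd.

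The tests of these class differences used edgeR within each preparation with the library as a block, and called a gene where its adjusted p was below 0.05 and its log2 fold change was 1.3 or more in size. Of the 10 genes, 5 were called higher in cortical surface mesenchymal-like cells than in pericyte-like cells (Dcn, Lum, Fmod, Omd and Podn), where 9.88% of 10694 genes were called in that direction. Against VSMC-like cells 7 were called, those 5 with Prelp and Ogn (background 14.4%). Against endothelial-like cells 8 were called, all but Aspn and Chad (background 13.1%). The filter on detection took genes with a UMI in over 10% of the cells of any class and preparation in the fit. Chad and Podn passed it only through bone-associated mesenchymal-like cells. In cortical surface mesenchymal-like cells Podn rested on 28 UMIs and Chad had 0, so Chad could not be called higher in them. Aspn was called higher in pericyte-like cells, at a log2 difference of 5.12 ± 0.35 (SE, adjusted p = 9.1e-14, background 9.01%), and in VSMC-like cells, at 6.01 ± 0.35 (SE, adjusted p = 1.3e-15, background 11.8%). Bgn was not called against either mural class, at -0.03 ± 0.16 (SE, adjusted p = 0.935) for pericyte-like and -0.48 ± 0.20 (SE, adjusted p = 0.0477) for VSMC-like minus mesenchymal-like cells. Ogn, at -0.78 ± 0.20 (SE, adjusted p = 0.0019) for pericyte-like minus mesenchymal-like cells, passed the p but not the size, and without the Ccl19-led clusters it was -2.54 and called. The Prelp call against VSMC-like cells rested on the size limit, since 4 alternatives gave -1.17 to -1.29, and Ogn was -1.296 without CSA2.

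In the bone-associated libraries 8 of the 10 genes were called higher in mesenchymal-like cells than in pericyte-like cells (background 8.38%) and the same 8 than in VSMC-like cells (background 12.9%). Aspn and Prelp were the exceptions. With each mural class taken whole, Aspn was higher in it than in mesenchymal-like cells in both libraries. The difference was 0.97 ± 0.24 (log2, SE, adjusted p = 0.0022) for pericyte-like and 1.04 ± 0.23 (log2, SE, adjusted p = 0.00039) for VSMC-like cells, below the size needed for a call. Prelp stood at -0.57 ± 0.20 (SE, adjusted p = 0.0379) and -0.78 ± 0.18 (SE, adjusted p = 0.00076) for pericyte-like and VSMC-like minus mesenchymal-like cells. Without the Ccl19-led clusters both passed against pericyte-like cells, Aspn at 1.64 and Prelp at -1.74. All 10 genes were called higher in mesenchymal-like than in endothelial-like cells (background 14.9%). Chad and Podn entered the fit only through bone-associated mesenchymal-like cells, in which they were higher. The filter on detection thus favoured their calls in all these contrasts. Bgn against pericyte-like cells, at -1.33 ± 0.21 (SE, adjusted p = 7.5e-06), lost its call without BA2 (-1.14), in 2 cell filters (-1.11 and -0.70) and with each library clustered on its own (adjusted p = 0.0599). Podn was -1.17 against the same cells with up to 20% mitochondrial UMIs, and Chad was not called by DESeq2 in these 3 contrasts (adjusted p 0.221 to 0.520).

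The comparison of the preparations within mesenchymal-like cells gave 6 of the 10 genes as different, all higher in bone-associated cells: Bgn, Aspn, Lum, Ogn, Chad and Podn. Across 9580 tested genes 9.26% were called in that direction and 5.63% in the other. The median log2 fold change (cortical surface minus bone-associated) was -1.70 over the 10 genes and -0.05 over all genes. Dcn, Fmod, Prelp and Omd were not called. Aspn, Chad and Podn passed the filter on detection (over 10% of cells) only through the bone-associated cells, in which they were higher. A UMI was found in 1.87%, 0% and 6.74% of cortical surface cells and 61.4%, 31.9% and 36.8% of bone-associated ones. The filter thus favoured their direction, and these genes also enter the median.

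**Figure D2:**
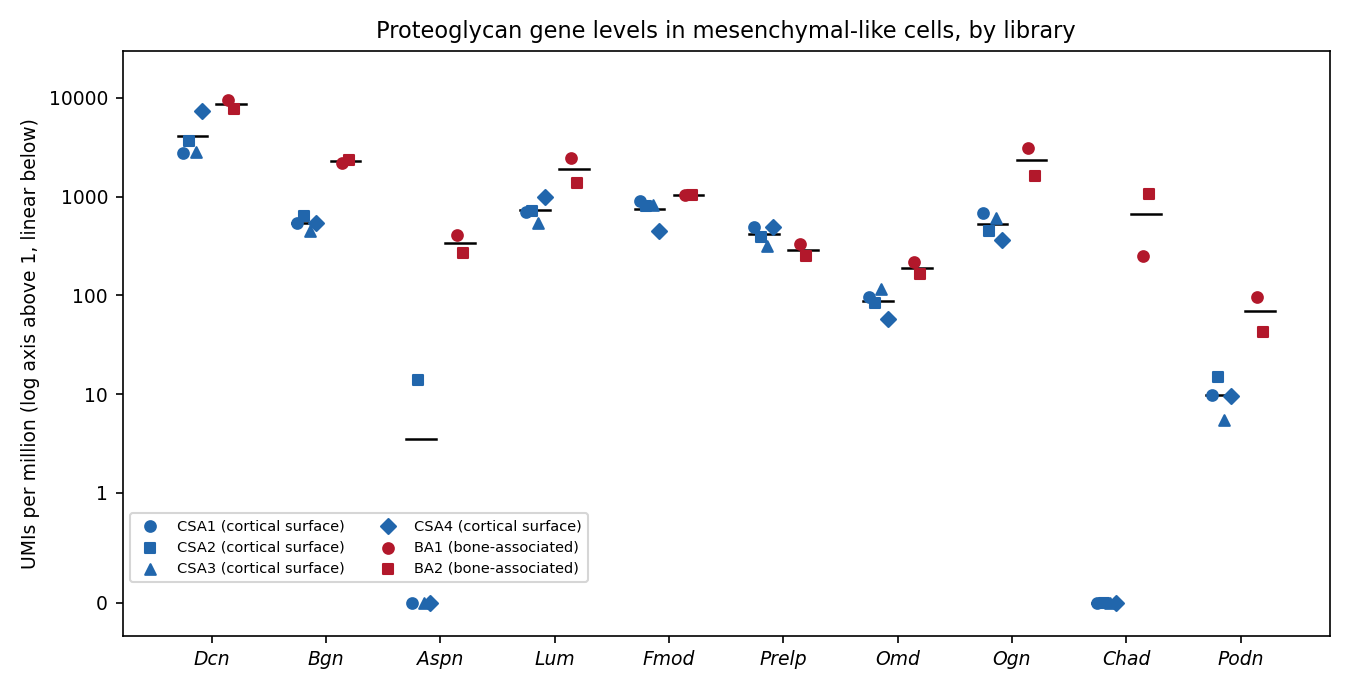
Level of each gene in mesenchymal-like cells, 1 point per library (blue, cortical surface CSA1 to CSA4; red, bone-associated BA1 and BA2), in CPM on a log axis that is linear below 1; black bars are group means. The red points lay above all blue points for every gene except Prelp, which held for 20.9% of all genes tested, and Chad was at 0 in all 4 cortical surface libraries.

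Among the members with chondroitin or dermatan sulfate chains and their relative Aspn, Bgn had 537, 638, 445 and 543 CPM in CSA1 to CSA4 and 2210 and 2337 CPM in BA1 and BA2. The groups lay far apart relative to the spread within each. Bgn was 4.11-fold higher in bone-associated cells (log2 -2.04 ± 0.26, SE, adjusted p = 5.9e-06), and was called under all 20 alternatives. Of these, clustering at resolution 1.0 and leaving out the Ccl19-led and split mural clusters returned the main result for mesenchymal-like cells. They were therefore no check on it, here or in each count of 20 below. A Bgn UMI was found in 87.6% of 267 cortical surface cells and 99.3% of 285 bone-associated cells. At 1500 UMIs per cell the shares were 53.9% and 89.0%. In T or NK-like cells, at medians of 6275 and 6127 UMIs against 7592 and 14897 in the mesenchymal-like cells, the unthinned shares were 0.458% and 1.14%.

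Dcn had 2741, 3646, 2817 and 7325 CPM in CSA1 to CSA4 and 9431 and 7732 CPM in BA1 and BA2. The groups did not overlap, but CSA4, with 22 cells, lay close to BA2. The difference of 2.04-fold (log2 -1.03 ± 0.36, SE, adjusted p = 0.0512) missed both limits. Without CSA4 it was -1.41 (adjusted p = 0.00266), which is a call.

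Aspn had 14.1 CPM in CSA2 and 0 in CSA1, CSA3 and CSA4, against 407 and 267 CPM in BA1 and BA2. All 19 cortical surface UMIs came from 5 of 267 cells, 13 of them from 1 cell. Of the 5 cells, 2 also held at least 2 of the 6 pericyte markers. That share was not counted over all 267 cells, so no source of the UMIs is read from it. In bone-associated tissue 175 of 285 cells (61.4%) held an Aspn UMI. The fitted difference was 42.9-fold (log2 -5.42 ± 0.50, SE, adjusted p = 8.0e-08). Without CSA2 no cortical surface UMI remained, and against a floor of 3 counts over the group Aspn was at least 100.5-fold higher in bone-associated cells.

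Of the members classed with keratan sulfate, Lum had 705, 715, 538 and 981 CPM in CSA1 to CSA4 and 2461 and 1363 CPM in BA1 and BA2. The groups did not overlap, and BA1 and BA2 differed more from each other than most cortical surface libraries did. Lum was 2.55-fold higher in bone-associated cells (log2 -1.35 ± 0.29, SE, adjusted p = 0.0017), just past the size limit. It fell below that limit without CSA1 (-1.29) or CSA3 (-1.27), and without BA1 it was -0.91 with an adjusted p of 0.0646. It was also lost with at least 1000 genes per cell (-1.296), with up to 20% mitochondrial UMIs (-0.99) and when each library was clustered on its own (-1.08). A Lum UMI was found in 83.5% of cortical surface and 64.9% of bone-associated mesenchymal-like cells, the opposite order to the CPM, and no order is read from those shares. Lum was uneven within the bone-associated cells, as given with the sub-clusters below.

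Fmod and Prelp were the members whose levels lay closest in the 2 preparations. Fmod had 909, 800, 824 and 448 CPM in CSA1 to CSA4 and 1047 and 1045 CPM in BA1 and BA2 (log2 -0.44 ± 0.29, SE, adjusted p = 0.372). Prelp was the only member with a positive value, with 494, 390, 313 and 495 CPM against 333 and 249 CPM (log2 0.57 ± 0.26, SE, adjusted p = 0.141), and its groups overlapped. Neither was called under any of the 20 alternatives. Omd, which binds hydroxyapatite and is known from bone, had 95.5, 83.8, 115 and 57.2 CPM against 216 and 166 CPM. That is a 2.06-fold difference (log2 -1.05 ± 0.28, SE, adjusted p = 0.0102) that passed the p and not the size.

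Ogn had 683, 453, 604 and 362 CPM in CSA1 to CSA4 and 3082 and 1623 CPM in BA1 and BA2. It was 4.28-fold higher in bone-associated cells (log2 -2.10 ± 0.31, SE, adjusted p = 2.9e-05) and was called under all 20 alternatives. Podn, the gene of podocan, was a low gene with 9.88, 14.8, 5.49 and 9.53 CPM against 96.3 and 42.8 CPM. It rested on 28 cortical surface UMIs and 216 bone-associated ones. It was 5.29-fold higher in bone-associated cells (log2 -2.40 ± 0.41, SE, adjusted p = 0.00016).

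Chad, the gene of chondroadherin, an integrin-binding cartilage matrix protein without a glycosaminoglycan chain, had the sharpest contrast. No Chad UMI was seen in 267 cortical surface mesenchymal-like cells, which at a floor of 3 counts allows a share of cells with a UMI of up to 1.12% (upper limit of the exact binomial interval, 1.37%). BA1 had 253 CPM and BA2 had 1074 CPM, from 91 of 285 cells (31.9%, 95% exact binomial interval 26.6% to 37.7%, counting error only). Against a floor of 3 counts over the cortical surface group, the mean of the 2 bone-associated libraries was at least 496-fold higher, at least 189-fold without BA2, at least 198-fold without CSA2 and at least 803-fold without BA1. Low Chad counts were also found where cortical surface mesenchymal-like cells had none. T or NK-like cells of the cortical surface held 10 UMIs in 6 of 437 cells, and those of bone-associated tissue 45 UMIs in 30 of 612 cells (4.90%). In bone-associated tissue the T or NK-like level was 1.03% of the mesenchymal-like level for Chad, and 0.0335% to 0.467% for the 8 other members with a UMI in T or NK-like cells.

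Other genes moved with the preparation in the same cells. The 7 mesenchymal markers summed to 3471 to 5839 CPM in the cortical surface libraries and 10467 and 13840 CPM in the bone-associated ones. Col1a2, Col3a1, Serpinf1, Pcolce and Fbln1 were higher in both bone-associated libraries, and Islr overlapped. Pdgfra went the other way, at 449, 293, 384 and 676 CPM in CSA1 to CSA4 and 260 and 147 CPM in BA1 and BA2. The 8 osteoblast genes summed to 32.9 to 543 CPM against 748 and 958 CPM, with Bglap, Bglap2, Ibsp and Dmp1 at 0 in all 4 cortical surface libraries and Ibsp at 0 in both bone-associated ones. The 6 cartilage genes summed to 66.7 to 134 CPM against 988 and 1183 CPM, with Comp at 862 and 916 CPM of the latter and Matn1 at 0 in all 6 libraries. The 4 tendon genes summed to at most 2.22 CPM against 196 and 216 CPM. Hemoglobin genes reached 61028 CPM in the mesenchymal-like cells of CSA3 and at most 37.5 CPM in the bone-associated ones. Their part in the differences was not tested, beyond that leaving out the hemoglobin genes gave 6 calls among the 10 genes and leaving out CSA3 and CSA4 gave 7.

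**Figure D3:**
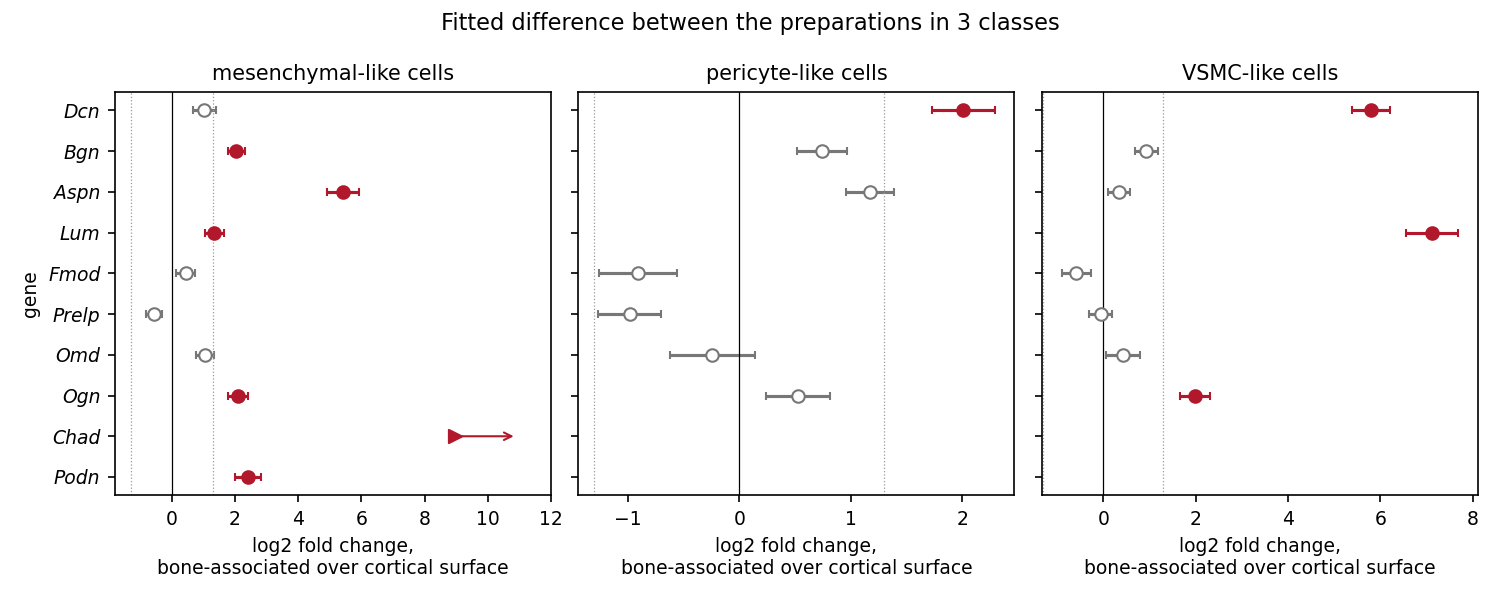
Fitted log2 fold change, bone-associated over cortical surface, of each gene in mesenchymal-like (left), pericyte-like (middle) and VSMC-like cells (right), with SE bars; filled red points were called, open grey points were not, dotted lines mark the size limit of 1.3, and axis ranges differ. The arrow for Chad is the lower bound against a floor of 3 counts, and missing rows were not tested. Called points lay to the right of 0 in all 3 classes.

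Mesenchymal-like cells were then divided within each preparation, with the 10 genes and the related matrix genes kept out of the clustering. Sub-clusters are described by their leading genes and are not tested, since they were formed from the same cells. The 285 bone-associated cells fell into 5 sub-clusters: 90 cells led by Ccl11 and Inmt, 86 by Camk4 and Gpha2, 55 by Pappa and Gjb6, 46 by Nppc and Col6a5, and 8 by Prg4 and Angptl7. Some of the 10 genes were highest in different sub-clusters.

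**Figure D4:**
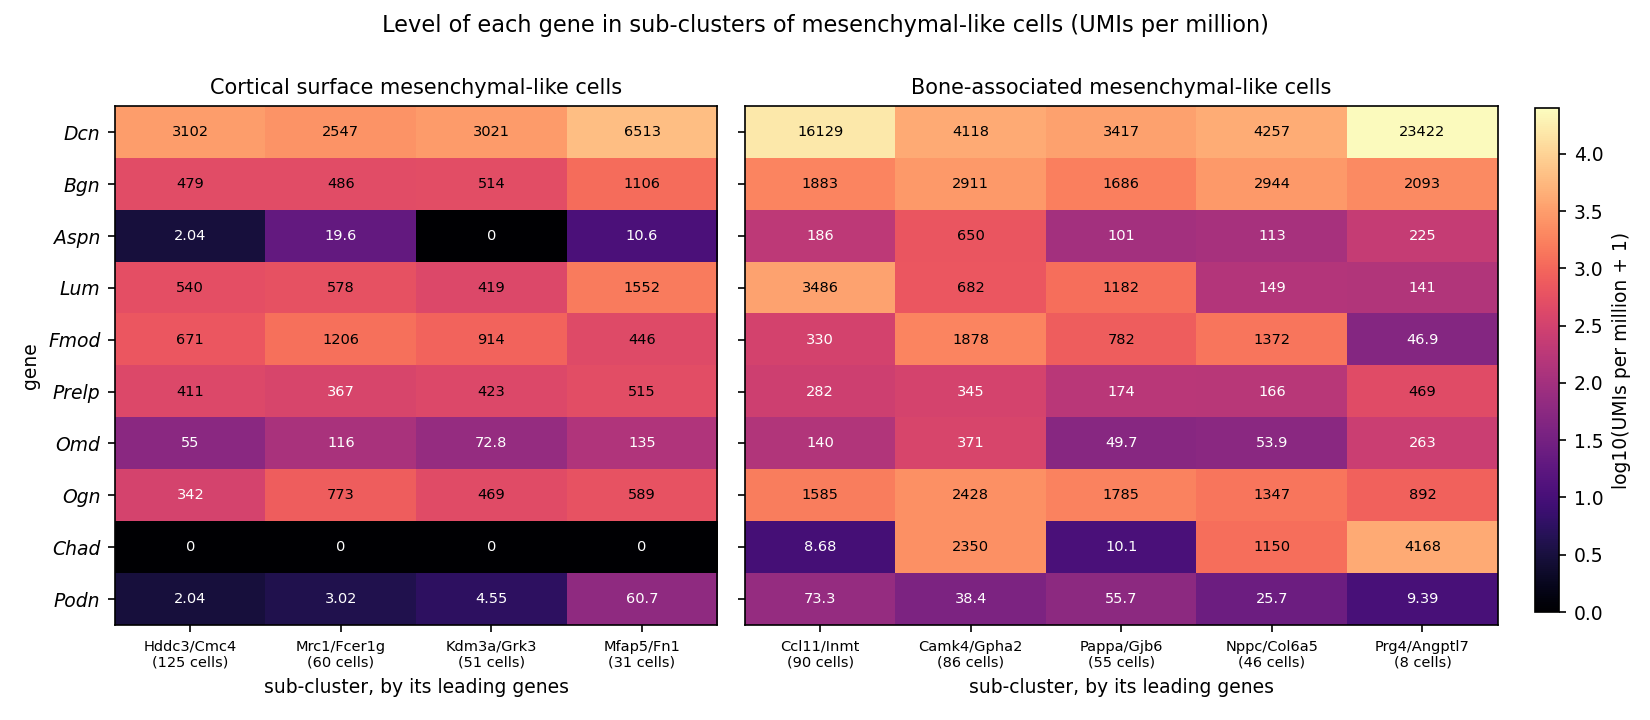
Level of each gene (rows, CPM in each cell of the plot, colour as log10(CPM + 1)) in sub-clusters of mesenchymal-like cells (columns, named by 2 leading genes, with cell numbers), for the cortical surface (left) and bone-associated tissue (right). Dcn and Lum were high in the Ccl11/Inmt sub-cluster, where Chad had 8.68 CPM, while Chad and Fmod were high in the Camk4/Gpha2 and Nppc/Col6a5 sub-clusters. Both Dcn and Chad were highest in the 8 Prg4/Angptl7 cells, where Fmod had 46.9 CPM.

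The Ccl11/Inmt cells had 16129 CPM of Dcn and 3486 CPM of Lum, and 330 CPM of Fmod. The Camk4/Gpha2 cells had 4118 CPM of Dcn, 682 CPM of Lum and 1878 CPM of Fmod. Both libraries showed this order. Dcn had 15657 CPM in BA1 and 16234 CPM in BA2 in the former (15 and 75 cells), and 5251 and 3935 CPM in the latter (9 and 77 cells). Fmod had 304 and 335 CPM in the former and 2163 and 1832 CPM in the latter. All bone-associated mesenchymal-like cells outside the Ccl11/Inmt sub-cluster, most of them from BA2, pooled to 689 CPM of Lum. The pooled cortical surface mesenchymal-like cells had 710 CPM. In BA1 alone, Lum had 1002 CPM in the 9 Camk4/Gpha2 cells and 2634 CPM in the 5 Pappa/Gjb6 cells.

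Chad was uneven among the sub-clusters. It had 2350 CPM in Camk4/Gpha2 cells, 1150 CPM in Nppc/Col6a5 cells and 4168 CPM in the 8 Prg4/Angptl7 cells, all from BA2, against 8.68 CPM in Ccl11/Inmt and 10.1 CPM in Pappa/Gjb6 cells. The share of cells with a Chad UMI was 58.1%, 58.7% and 87.5% in the first 3, and 3.33% and 7.27% in the others. The T or NK-like share in the same libraries was 4.90%, at a median of 6127 UMIs per cell against 13725 in the Ccl11/Inmt and 18272 in the Pappa/Gjb6 cells, and the 7.27% is 4 of 55 cells. At these depths expression was not told apart from the T or NK-like level in those 2 sub-clusters. That level of Chad was 5.48 CPM in BA1 and 12.1 CPM in BA2. Endothelial-like cells had 12.1 and 1.55 CPM, and B-like cells 0 and 0.869 CPM. These classes differed, so the level of free Chad RNA was not settled, and 8.68 and 10.1 CPM lay above the B-like level. In the Camk4/Gpha2 cells of BA1 Chad had 613 CPM and in those of BA2 2630 CPM.

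Aspn and Omd peaked in the Camk4/Gpha2 cells, at 650 and 371 CPM. In the other bone-associated sub-clusters Aspn had 101 to 225 CPM and Omd 49.7 to 263 CPM. The 8 osteoblast genes, with Alpl, the mineralization phosphatase, among them, summed to 1178 CPM in the Camk4/Gpha2 cells against 75.1 to 720 CPM elsewhere. The cartilage list summed to 2004 CPM in the Camk4/Gpha2 cells, against 203 to 1635 CPM in the other bone-associated sub-clusters. Comp made up most of that 2004 CPM. Sox9 was lower in the Camk4/Gpha2 cells than in the Ccl11/Inmt, Pappa/Gjb6 and Nppc/Col6a5 cells, and higher than in the Prg4/Angptl7 cells. The tendon list summed to 302 CPM, close to the 282 CPM of the Pappa/Gjb6 and 272 CPM of the Prg4/Angptl7 cells. Bgn and Ogn varied less, from 1686 to 2944 CPM and from 892 to 2428 CPM over the 5 sub-clusters. In the 8 Prg4/Angptl7 cells, Prg4 being the lubricin gene of joint surfaces, Dcn reached 23422 CPM while Lum had 141 CPM and Fmod 46.9 CPM.

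The 267 cortical surface cells gave 4 sub-clusters, of 125, 60, 51 and 31 cells. The 31 cells were led by Mfap5, Fn1 and Igfbp5 and differed most in the 10 genes. They had 6513 CPM of Dcn, 1106 CPM of Bgn, 1552 CPM of Lum and 60.7 CPM of Podn, where the other 3 had 2547 to 3102, 479 to 514, 419 to 578 and 2.04 to 4.55 CPM. Of the 28 Podn UMIs in cortical surface mesenchymal-like cells, 23 came from these 31 cells. Fmod went the other way, at 446 CPM against 671 to 1206 CPM. They were found in all 4 libraries (6, 18, 2 and 5 cells), with a Dcn level of 3653 CPM in CSA1, 6072 CPM in CSA2 and 16991 CPM in CSA4. In CSA4, 526 of the 769 mesenchymal-like Dcn UMIs came from these 5 cells. The 31 cells also had 950 CPM of the 8 osteoblast genes, mostly Spp1 at 824 CPM, against 26.5 to 50.04 CPM in the other 3 sub-clusters. They had 259 CPM of the 6 cartilage genes, mostly Comp at 224 CPM, against 83.04 to 96.7 CPM. Sox9 was lower in them than in the other 3. Whether the 31 cells came from bone-associated tissue was not tested. The 60 cells, which had the highest Fmod and Ogn of the 4 (1206 and 773 CPM), were led by the macrophage genes Mrc1, Pf4 and C1qa, and carried 744 CPM of the 8 border macrophage markers against 177 to 305 CPM in the others. The 51 cells came mostly from CSA3 and CSA4 (34 cells) and had a median of 4511 UMIs.

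The preparations were also compared within the mural classes. In pericyte-like cells 7 of the 10 were tested and Dcn alone was called, higher in bone-associated cells, as were 5.80% of 7324 genes. Dcn had 71.4, 116, 49.4 and 111 CPM in CSA1 to CSA4 and 413 and 253 CPM in BA1 and BA2 (log2 -2.01 ± 0.28, SE, adjusted p = 0.00013). Most of these UMIs lay in the Ccl19-led clusters, which had 99.2, 180, 94.97 and 215 CPM against 719 and 470 CPM, and without those clusters the call was lost (-1.51, adjusted p = 0.107) while Ogn was called (-1.66). Aspn was 2.25-fold higher in bone-associated pericyte-like cells (log2 -1.17 ± 0.22, SE, adjusted p = 0.0016), under the size limit, and past it without the Ccl19-led clusters (-1.35) or without BA2 (-1.39). Prelp was 1.97-fold higher in the cortical surface (log2 0.98 ± 0.28, SE, adjusted p = 0.0349), and passed the size limit without BA1 (1.37), under a minimum of 1000 genes (1.51) and under a limit of 20% mitochondrial UMIs (1.55). Under these 2 cell filters Lum, which had not passed the filter on detection, did pass it and was called higher in bone-associated cells.

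In VSMC-like cells, present in CSA1 and CSA2 only on the cortical side, 8 of the genes were tested and Dcn, Lum and Ogn were called higher in bone-associated tissue, where 5.16% of 8483 genes were called in that direction. Ogn had 229 and 102 CPM in CSA1 and CSA2 and 828 and 407 CPM in BA1 and BA2 (log2 -1.99 ± 0.32, SE, adjusted p = 8.6e-05), in non-overlapping groups. Dcn had 2.20 and 5.41 CPM against 167 and 274 CPM, and Lum had 0.735 and 0.492 CPM against 60.7 and 114 CPM. Both passed the filter on detection only through the bone-associated cells, since 4.62% and 0.769% of cortical surface cells held a UMI. Of the bone-associated UMIs of these 2 genes, all but 3 for Dcn and all but 1 for Lum came from 2 sub-clusters of 50 cells in all, led by genes such as Nts and Wisp2. Both led in 3 of the 7 mesenchymal markers, beside 6 and 5 of the 8 VSMC markers. The smaller, of 16 cells, also led in 3 of the 6 pericyte markers and had Ccl19 among its leading genes. In the other bone-associated VSMC-like cells Dcn had 0.615 CPM in BA1 and 1.23 CPM in BA2. Without those sub-clusters Ogn alone was called.

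Partner genes, which make, cleave or are bound by these proteins, were compared in the same mesenchymal-like cells as lists. Of the 8 other family genes 4 were tested and 3 were called, all higher in bone-associated cells. They were Epyc (0.741 ± 1.48 CPM, SD, n = 4, against 70.5 ± 23.7 CPM, SD, n = 2), Tsku (2.57 ± 3.20 against 18.3 ± 2.45 CPM) and Ecm2 (45.3 ± 22.9 against 172 ± 67.2 CPM). Epyc encodes epiphycan, a cartilage proteoglycan, and lies in the Dcn and Lum group of genes, while Ecm2 lies 11.7 kb before Aspn. The background in this direction was again 9.26%. Partner genes with few cortical surface UMIs, such as Epyc and Tsku, passed the filter on detection only through the bone-associated cells.

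Of 22 genes for the enzymes of chain linkage and of chondroitin or dermatan sulfate, 17 were tested, 2 were called higher in bone-associated cells (background 9.26%) and 1 higher in cortical surface cells (background 5.63%), with a median log2 fold change of -0.44 against -0.05 over all genes. Chst12 was higher in bone-associated cells (9.82 ± 6.25 CPM, SD, n = 4, against 42.7 ± 6.40 CPM, SD, n = 2), as was Xylt1, named here after its value was seen. Chst15, which adds a further sulfate to chondroitin sulfate, was 4.57-fold higher in cortical surface cells (log2 2.19 ± 0.40, SE, adjusted p = 0.00036). Of 8 keratan sulfate genes 3 were tested, and B4galt1 alone was called, 5.07-fold higher in bone-associated cells (log2 -2.34 ± 0.36, SE, adjusted p = 4.1e-05).

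Of 7 genes for proteases that cut these or related proteins, 5 were tested and 4 were called higher in bone-associated cells (background 9.26%). Mmp2 had 21.2 ± 11.2 CPM (SD, n = 4) against 380 ± 123 CPM (SD, n = 2), Adamts5 3.76 ± 2.93 against 96.3 ± 7.79 CPM, and Adamts4 rested on 2 cortical surface UMIs against 211. Of the 14 matrix genes 13 were tested and 11 were called, all higher in bone-associated cells (background 9.26%), with a median of -2.43. Among them were the fibril-associated collagens Col14a1 (log2 -5.44 ± 0.50, SE, adjusted p = 8.0e-08) and Col12a1 (-3.86 ± 0.30, SE, adjusted p = 9.5e-09), and Thbs1 (-3.50 ± 0.31, SE, adjusted p = 5.7e-08).

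The bound growth factors and receptors went both ways. Of 12 genes 10 were tested, 4 were called higher in bone-associated cells (background 9.26%) and 3 higher in cortical surface cells (background 5.63%), with a median of -0.23. Tgfb3 had 5.65 ± 3.22 CPM (SD, n = 4) against 145 ± 7.51 CPM (SD, n = 2), and Tgfb2 had 4.23 ± 4.97 against 52.1 ± 6.84 CPM. Bmp2, a bone morphogenetic protein, was 35.5-fold higher in cortical surface cells (log2 5.15 ± 0.40, SE, adjusted p = 1.0e-08), at 195 ± 34.7 CPM (SD, n = 4) against 6.77 ± 3.27 CPM (SD, n = 2). With 22 bone-associated UMIs, Bmp2 passed the filter on detection only through the cortical surface cells, in which it was higher. Tgfb2 and Tgfb3, with 11 cortical surface UMIs each, passed it only through the bone-associated cells.

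The genes most like each member were sought by Pearson's correlation of log2(CPM + 1) over 66 class and library sums of 16 classes, among 14702 genes. The sums share libraries and differ in depth, so the values are descriptions. Omd and Fmod were the pair of members most alike, at 0.94, and each was among the 3 genes nearest to the other, with the transcription factor gene Foxd1 near both (0.94 and 0.92). Aspn lay nearest to Notch3 (0.96), a receptor of mural cells, and Aoc3 (0.94), Prelp to Zic4 (0.97) and Zic1 (0.96), and Bgn to Nid1 (0.94) and Col5a2 (0.93). Dcn lay nearest to Bicc1 (0.89) and Pdgfrl (0.89), Lum to Mfap4 (0.93) and Itgbl1 (0.92), Ogn to Col1a2 (0.94) and Gas1 (0.92), and Podn to 2810433D01Rik (0.85). Chad had no gene closer than Tmem215 (0.83), with Kcns1 (0.82) and Ostn (0.81) next, and its correlation with Prelp was 0.06.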

How the data were processed

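Single-cell 3' RNA libraries of 4 cortical surface and 2 bone-associated preparations were measured. The authors deposited raw UMI counts per gene and barcode, made with Cell Ranger on mm10 (version 3 in the submitters' processing notes, 6.1.2 in the matrix headers). The dissociation in the labels (papain, V-SVZ tissue) differs from the study's methods. Barcodes were kept with 500 genes or more and a mitochondrial UMI share of 10% or less, and the highest-scoring doublets were left out at 0.8% per 1000 cells. Libraries held 8408685 to 56169736 UMIs. Free RNA was not corrected for.

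Cells of each preparation were clustered (2000 variable genes, 30 components, 15 neighbours, Leiden at resolution 1.5, mixed clusters split once at 1.0), without the 10 genes and 71 partner genes, so the classes are rebuilt and not those of the authors. A class name needed at least 3 leading markers, and no other class with more than 50% of its markers leading, a limit chosen after seeing that microglia markers such as Sparc lead fibroblasts. Unnamed cells, 1019 and 653 in the 2 preparations, entered no test, and a bone-associated mural cluster of 157 cells is among them. Mesenchymal-like cells were divided again with 10 neighbours at resolution 0.5, chosen after seeing the data.

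UMIs were summed per class and library (at least 10 cells) and TMM-normalized, and tested by the quasi-likelihood method of edgeR, for genes seen in more than 10% of cells in at least 1 of the groups. Calls needed a Benjamini-Hochberg adjusted p under 0.05 over all genes tested and a log2 fold change of 1.3 or more in size. Library was a block between classes only. Printed CPM are UMIs per 1000000, without TMM scaling. On simulated data with 200 genes changed 4-fold in the mesenchymal-like comparison (9580 genes), 173 were recovered with 17 false calls. Named genes are the 10 members, in each partner list the 3 called genes with the largest fold change (with 50 UMIs or more in the higher group), and the 3 genes most like each member. The members and lists were chosen with earlier results of these data known. Gene positions were read from GENCODE M21. Statistics were run in R 4.3.3 with edgeR 4.0.16 and DESeq2 1.42.0. Cells were handled in Python 3.11.15 (scipy 1.17.1 and numpy 2.4.6) and clustered with leidenalg 0.10.2 on igraph 0.11.9 after scikit-learn 1.9.0. Tables used pandas 2.3.3 and plots matplotlib 3.10.9.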

Additional observations from a re-analysis of the deposited data

Results flagged for a closer look

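In the cases checked, in which a class in the cortical surface had 4 libraries and at least 20 UMIs of a gene in 1 of them, 1 library lay far from the other 3 by Dixon's criterion in 2 of 26 cases. Chance alone meets the criterion in about 1 in 20. Both were CSA4 in the pericyte-like cells led by Ccl19 and Colec11. Fmod had 108 CPM there, against 202 to 216 CPM in CSA1 to CSA3. Omd had 34.0 CPM, against 51.8 to 54.1 CPM.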

How the results depend on the processing

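Of 191 recomputed counts of calls among the 10 genes or their partners, 181 stayed within 1.5 times the count reported. The other 10 were all in the mural comparisons of the preparations. The 1 call in pericyte-like cells became 3 with at least 1000 genes per cell or with up to 20% mitochondrial UMIs, and 2 without the Ccl19-led clusters, an alternative added after seeing the data. The 3 calls in VSMC-like cells became 1 under the same cell filters, under clustering of single libraries, with cells thinned to 1500 UMIs (2343 genes tested), and without the split sub-clusters (added likewise). With 1 library left out, the calls ranged from 5 to 7 in mesenchymal-like cells, from 1 to 2 in pericyte-like cells (2 without BA1 or without BA2) and stayed at 3 in VSMC-like cells. The VSMC-like comparison held no sum from CSA3 or CSA4, so leaving out either could not change it. Aspn in endothelial-like minus mesenchymal-like cells of the cortical surface ranged from -0.79 to 5.77, the latter without CSA2, which held all its mesenchymal-like UMIs there. Of 1615 recomputed fold changes of single genes, 1581 kept their call and direction, 20 lost the call, 13 gained one and 1 reversed. These tallies include clustering at resolution 1.0, which gave the same counts over all genes as the main fit in every comparison. They also include alternatives that did not touch the class compared. Of 80 recomputed levels 7 moved by over 1 SD, 6 of them in bone-associated cells.

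Counts over all genes that moved by over 1.5 times, in total or in 1 direction, were these. Thinning left 2667 genes tested in mesenchymal-like cells, of which 243 were higher in the cortical surface and 308 in bone-associated cells, against 539 and 887. It gave 63 and 176 calls in pericyte-like and 38 and 117 in VSMC-like cells, against 120 and 425 and 137 and 438. Without the filter on detection these 2 gave 200 and 618 and 187 and 759. In pericyte-like cells a minimum of 1000 genes gave 194 and 653, up to 20% mitochondrial UMIs 200 and 617, and leaving out BA2 78 and 340, and clustering of single libraries 100 and 272 in VSMC-like cells. For bone-associated pericyte-like minus mesenchymal-like cells, 865 higher and 896 lower genes became 522 and 519 under that clustering and 561 and 426 without BA2. In the class contrasts thinning left 4364 genes and 852 to 1406 calls, against 1761 to 2893.

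Libraries of the preparations share replicate numbers, and nothing in the labels pairs them. The deviations of same-numbered libraries correlated at 0.07 and 0.16. With the replicate block 538 genes were called higher in cortical surface and 947 in bone-associated mesenchymal-like cells, and 7 of the 10 genes were called, Dcn (-1.45) being added. Without the library as a block in the class contrasts, Prelp was lower by 1.26 (log2) in cortical surface VSMC-like than in mesenchymal-like cells and lost its call. With the block that difference was -1.37. With 2 bone-associated libraries, and 30 and 22 mesenchymal-like cells in CSA3 and CSA4, whether genes near the size limit, such as Lum and Dcn, are called changes with single libraries and with the settings named for them.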

Other observations

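Chad lies inside Acsf2 on the opposite strand. Of the 30 bone-associated T or NK-like cells with a Chad UMI, 7 also held an Acsf2 UMI, where 31 of all 612 such cells held one. In bone-associated mesenchymal-like cells 36 of the 91 cells with a Chad UMI held an Acsf2 UMI, where 96 of all 285 did. In the cortical surface mesenchymal-like cells, without any Chad UMI, 69 of 267 held an Acsf2 UMI. No test was run on these values.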
